A study of Mus musculus with 12 samples.

Results

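In exosomes released by primary hepatocytes of lean mice, the listed miRNA reads were led by a single species. In the deposited small RNA table, 124 of 1965 listed mature mouse miRNA names were above 0 in all 4 lean libraries, and these 124 names are described here as the baseline members. They were 6.31% of the listed names and 30.3% of the 409 names above 0 in at least 1 lean library. Together they held 98.8% ± 0.205 of the listed miRNA reads (SD, n = 4 libraries), and miR-101b-3p alone held 62.3% ± 6.53. The listing is named as holding "unique" mouse miRNAs, and what was set aside is not stated. Ranks and shares of the cargo are therefore those among the listed names.

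The series holds 12 libraries in groups of 4, named lean, 4wks HFD and 16wks HFD in the labels, and the 8 HFD libraries are not described here. The lean libraries carry the treatment label control and the abbreviation NCD in their column names. Their source is primary mouse hepatocytes at passage 0, with a growth medium of Williams' E, 10% FBS and 1% glutamax. The labels used here give no strain, sex, age or genotype. They do not say whether the 4 libraries came from separate mice, so each SD measures the spread between these libraries. They also do not say whether the serum was cleared of its own vesicles.

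A miRNA is a short RNA that guides Argonaute proteins to messenger RNAs, mainly through its seed, the stretch near its 5′ end that pairs with the target. Each precursor hairpin can yield a mature strand from its 5′ arm (5p) and one from its 3′ arm (3p), and usually 1 of the strands is kept while the other is degraded. Exosomes are small membrane vesicles that carry a part of the miRNAs of the releasing cell, and hepatocytes are known for very high cellular levels of miR-122.

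The sequences of the leading members, taken from RefSeq on GRCm38.p6, are printed 5′ to 3′ with the seed in capitals, bases 2 to 8. miR-101b-3p is shown with its listed relatives miR-101a-3p and miR-101c, because reads of close copies could be assigned to either name.
miR-101b-3p: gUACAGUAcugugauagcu
miR-101a-3p: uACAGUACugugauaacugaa
miR-101c: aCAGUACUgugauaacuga
The next set gives other leading members, no 2 of which share a whole seed, with the close copies miR-1843a-5p and miR-1843b-5p side by side.
miR-1843a-5p: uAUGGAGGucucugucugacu
miR-1843b-5p: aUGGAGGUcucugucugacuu
miR-3068-5p: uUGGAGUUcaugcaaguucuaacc
miR-5121: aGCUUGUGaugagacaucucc
miR-92a-3p: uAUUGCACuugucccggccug
miR-351-5p: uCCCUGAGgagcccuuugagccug
miR-193a-5p: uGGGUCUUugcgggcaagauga
miR-674-3p: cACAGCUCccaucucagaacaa

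miR-101b-3p, whose family is known to repress the Polycomb methyltransferase gene Ezh2, ranked first in every lean library. It had 605106, 623135, 701905 and 547543 CPM in replicates 1 to 4, where CPM is the reads of a name scaled to a total of 1000000 listed miRNA reads for that library. Every value lies far above those of all other miRNAs, with a mean of 619422 CPM beside 37556 CPM for the member at rank 2. miR-101a-3p, which differs from it by 2 edits when overhanging ends are not counted, was listed at 0 in all 4 libraries. miR-101c, at 3 edits counted the same way, was listed at 0 in replicates 1 and 3, at 32.9 CPM in replicate 2 and at 204 CPM in replicate 4. Mir101b lies at chr19:29135279-29135375 on the plus strand of GRCm38, in an intron of Rcl1. The sources used here do not say how reads that match several names were counted, so the split within such families is uncertain.

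The depth behind these values was low. The 4 libraries held 13748, 30430, 23932 and 14671 reads assigned to listed miRNAs, recovered from the steps of the CPM values, so that 1 read equals 72.7, 32.9, 41.8 and 68.2 CPM. They listed 232, 296, 230 and 234 names above 0. Of the 1965 names, 1556 were listed at 0 in all 4 libraries, 132 were above 0 in 1 library, 95 in 2 and 58 in 3. The 58 names above 0 in 3 libraries held 0.594% ± 0.104 of the CPM. A value near 1 read can be above 0 or at 0 by counting alone, and counting intervals cover no other error.

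Beyond the first rank the cargo was spread over many miRNAs. Ranks 2 to 10 by mean CPM held 20.04% ± 4.56 of the CPM, ranks 11 to 20 held 6.85% ± 0.736, ranks 21 to 50 held 7.25% ± 1.27, and the last 74 members held 2.35% ± 0.372. The 10 leading members had 82.0%, 81.6%, 85.3% and 80.4% of the CPM in replicates 1 to 4. Between 16 and 24 names were enough to reach 90% of the CPM of a library. The effective number of miRNAs, the exponential of the Shannon entropy of the shares, was 8.45, 8.05, 5.54 and 10.2 in replicates 1 to 4. It was lowest in replicate 3, where miR-101b-3p had its highest share (70.6%), and highest in replicate 4, where it had its lowest (54.7%). With miR-101b-3p removed and the CPM recomputed, the effective number was 42.3 ± 3.81.

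**Figure D1:**
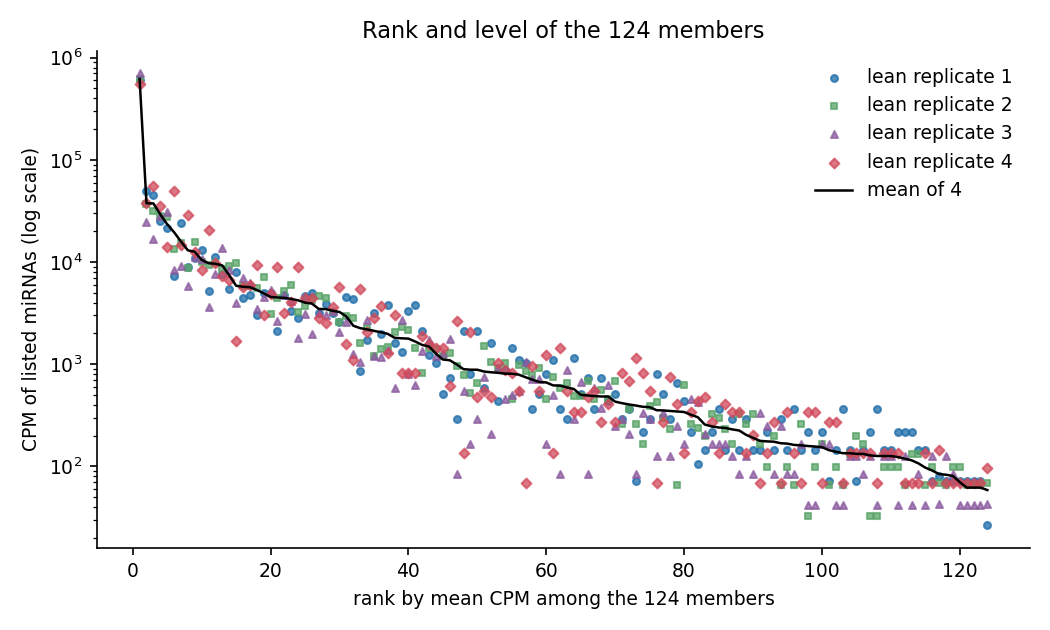
CPM of the 124 members in each of the 4 lean libraries (points, log axis) against rank by mean CPM, with the mean as a line. The first member stands at 619422 CPM on average and the last at 58.8 CPM, and the points of a member scatter more widely at low ranks.

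The order of the leading members was similar between libraries. Of the 10 members with the highest mean, 9 were among the own top 10 of each library, and of the 20 highest, 17 to 19 were among the own top 20. Each library is part of the mean, so this overlap follows in part from the choice. Neighbours in that order mostly did not differ beyond their spread. miR-1843a-5p, from an intron of Dcaf5 (chr12:80391613-80391677, minus strand), had 50044, 37332, 24611 and 38239 CPM in replicates 1 to 4. miR-5099, from a locus between annotated genes (chr12:36816205-36816278, plus strand), had 45534, 31909, 16923 and 55552 CPM. These overlap throughout, so ranks 2 and 3 are not distinguished by their means of 37556 and 37479.5 CPM.

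miR-151-3p, from an intron of the focal adhesion kinase gene Ptk2 (chr15:73254815-73254882, minus strand), had 25240, 28032, 28289 and 35512 CPM in replicates 1 to 4. It was among the steadiest leading members, with a coefficient of variation (CV, the SD over the mean) of 14.98%. miR-3068-5p, from an intron of Alkbh1 (chr12:87437679-87437757, minus strand), had 21385, 27769, 30712 and 14041 CPM, lowest in replicate 4. miR-92a-3p, a product of the miR-17-92 cluster and of its paralogous cluster on the X chromosome, had 24367, 15380, 9151 and 14655 CPM, highest in replicate 1. It has 2 loci, Mir92-1 at chr14:115044427-115044506 on the plus strand, in an exon of Mir17hg, and Mir92-2 at chrX:52741838-52741928 on the minus strand. Its near copies miR-92b-3p and miR-25-3p were listed at 0 in all 4 libraries.

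miR-193a-5p had 10983, 15610, 11240 and 12610 CPM in replicates 1 to 4, and miR-674-3p had 13093, 9957, 10739 and 8316 CPM. Both were steady, with CVs of 16.8% and 18.9%. miR-5121 and miR-351-5p, the sixth and eighth members, were carried largely by replicate 4 and are described with the spread between libraries. The members at ranks 11 to 20 were miR-511-3p, miR-1843b-5p, miR-676-3p, miR-872-5p, miR-1843a-3p, miR-339-3p, miR-350-5p, miR-21a-5p, miR-802-3p and miR-501-3p, with mean levels between 9740 and 4556 CPM.

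**Figure D2:**
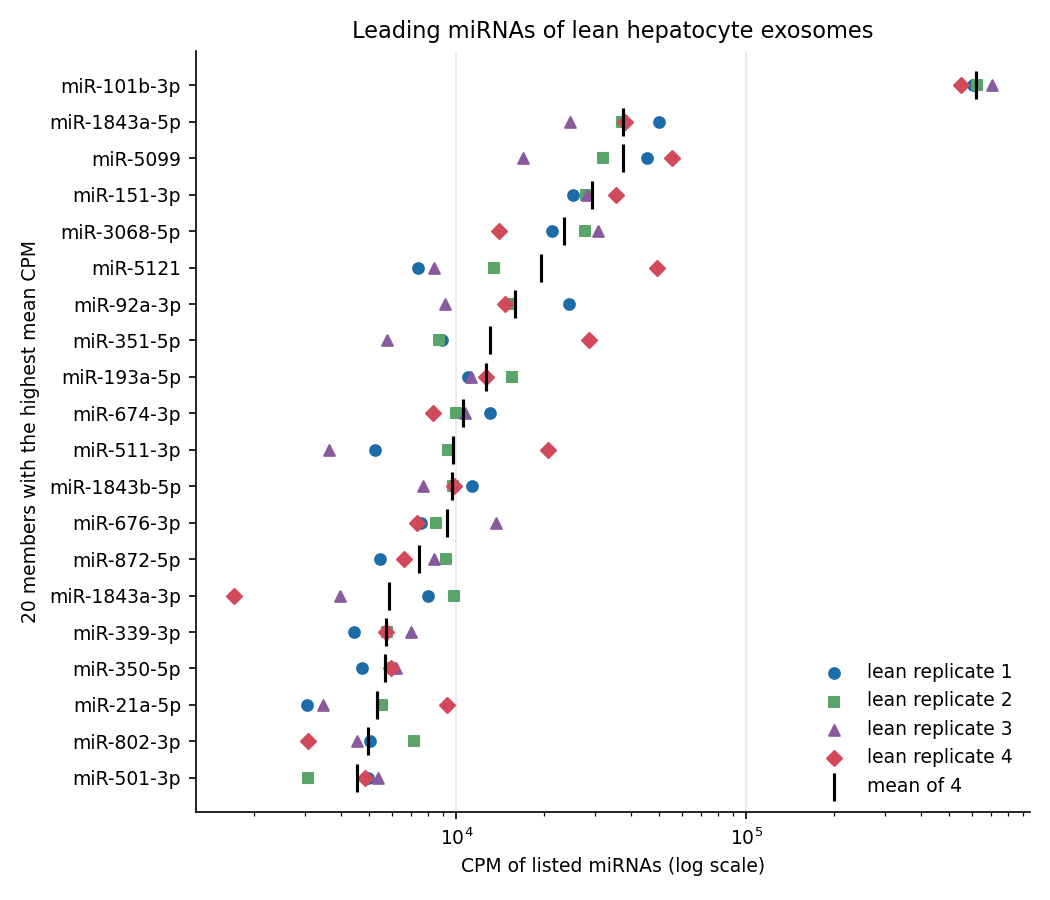
CPM (log axis) of the 20 members with the highest mean in each lean library, with the mean as a bar. miR-101b-3p stands apart at 547543 to 701905 CPM, the libraries of most other members overlap with those of their neighbours, and replicate 4 lies apart for miR-5121, miR-351-5p, miR-511-3p and miR-1843a-3p.

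Several of these members have known roles in liver or in immune cells. miR-802, known in mice as a miRNA that rises in the liver in obesity, was represented by its 3p strand at 5019, 7164, 4555 and 3067 CPM in replicates 1 to 4, while miR-802-5p was listed at 0 in all 4. miR-21a-5p, a strand from the Vmp1 locus that is induced in many injured and growing tissues, had 3055, 5554, 3468 and 9270 CPM. Its level was highest in replicate 4. miR-192-5p, a liver-enriched miRNA, was a member at 145, 230, 167 and 409 CPM, which are 2, 7, 4 and 6 reads. miR-122-5p, the miRNA best known from hepatocytes, was listed at 0 in replicates 1, 2 and 4 and at 41.8 CPM in replicate 3, which is 1 read.

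Most members came as 1 of their hairpin's strands. By name, 70 of the 124 members were 3p strands, 45 were 5p strands and 9 carried no arm. That is 56.5% 3p and 36.3% 5p among members, beside 42.1% and 41.6% among all listed names. In CPM, 3p strands held 78.7% ± 5.49 and 5p strands 14.9% ± 2.26, but without miR-101b-3p the shares were 44.1% ± 5.08 and 39.7% ± 2.05. The excess of 3p strands in CPM thus rested on miR-101b-3p, whose 5p strand was listed at 0, 32.9, 83.6 and 68.2 CPM in replicates 1 to 4.

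Of 822 hairpins with both arms listed, 100 had at least 1 member arm. The 3p arm was the higher in all 4 libraries in 62 of these, the 5p arm in 32, and in 6 neither arm was higher in all 4. In 59 of the 100 the lesser arm was listed at 0 in every lean library. A member arm was chosen for being above 0 in all 4 libraries, so these counts follow in part from the choice. Hairpins with at least 20 reads over both arms in every library numbered 31, with the 3p arm higher in 19, the 5p arm in 11, and neither in 1. In 24 of the 31, more than 90% of the CPM on average came from 1 arm, and in 12 the lesser arm was listed at 0 throughout. miR-92a-3p counts for both of its hairpins here.

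Among these hairpins, some were led by the strand opposite to the one known as the abundant one in mouse tissues, as with miR-191, miR-125b and miR-24. miR-151-5p, miR-339-5p, miR-802-5p, miR-191-5p, miR-125b-5p, miR-28a-5p and miR-361-5p were listed at 0 in all 4 libraries while their 3p partners were members. miR-193a-3p, miR-872-3p and miR-24-3p were listed at 0 while miR-193a-5p, miR-872-5p and miR-24-2-5p were members. miR-191-3p had 4728, 5159, 4764 and 3204 CPM in replicates 1 to 4. miR-125b-2-3p, from the Mir99ahg transcript, had 3346, 5915, 4137 and 4022 CPM. miR-24-2-5p had 2109, 4404, 2632 and 8861 CPM, highest in replicate 4. The deposited table is described by its name as holding "unique" mouse miRNAs, and no source used here states which names or reads were set aside. An entry of 0 is therefore given as listed, not as absence from the vesicles.

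**Figure D3:**
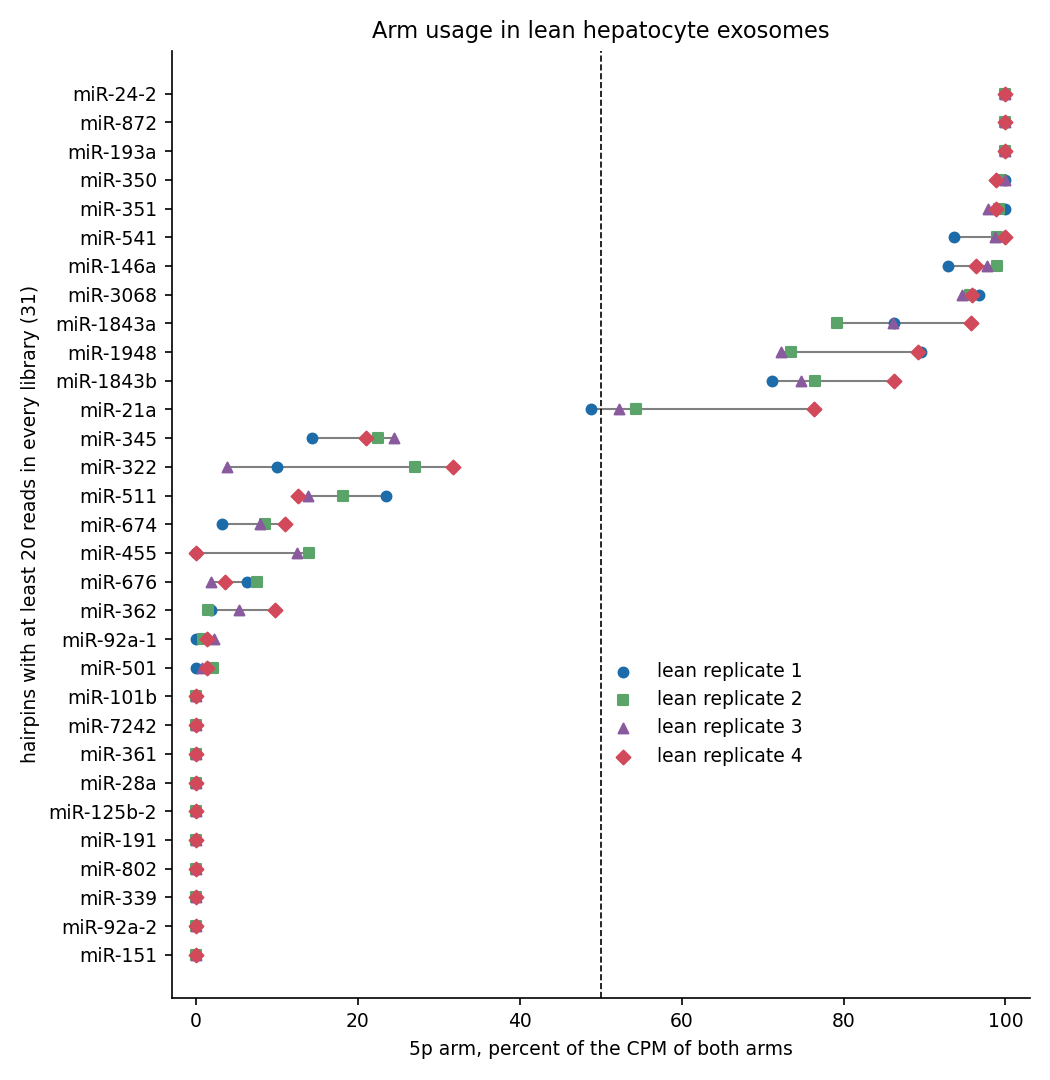
Share of the 5p arm in the CPM of both arms (percent) in each lean library, for the 31 hairpins with at least 20 reads in every library, with a dashed line at equal arms. Most hairpins sit at 1 end in all 4 libraries, and miR-21a, miR-1843b, miR-1948 and miR-322 lie between the ends with visible spread.

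Hairpins with both strands among the members numbered 16. Among the 31 hairpins with at least 20 reads in every library, miR-21a had the most even arms, and its strands are these.
miR-21a-5p: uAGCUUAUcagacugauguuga
miR-21a-3p: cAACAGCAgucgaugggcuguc
The 5p strand held 48.8% (95% Clopper-Pearson interval 37.9 to 59.9) of the miR-21a reads in replicate 1. It held 54.3% (48.6 to 60.0) in replicate 2, 52.2% (44.1 to 60.2) in replicate 3 and 76.4% (69.5 to 82.4) in replicate 4. The intervals of replicates 1 to 3 overlap, and that of replicate 4 lies above them. The 3p strand had 3200, 4666, 3176 and 2863 CPM, so the higher 5p share in replicate 4 came with a higher level of miR-21a-5p.

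The paralogous hairpins Mir1843a on chromosome 12 and Mir1843b on chromosome 1 both favoured their 5p arm. miR-1843a had 5p shares of 86.2%, 79.2%, 86.1% and 95.7% in replicates 1 to 4, and miR-1843b had 71.1%, 76.5%, 74.8% and 86.2%. Both were highest in replicate 4, where miR-1843a-3p had 1704 CPM beside 8001, 9793 and 3970 CPM in replicates 1 to 3. The 5p strands of the pair differ by 1 edit when overhanging ends are not counted, so the levels of each may hold reads of the other. miR-511 had 5p shares of 23.4%, 18.1%, 13.9% and 12.6%, and miR-322 had 10.0%, 27.1%, 3.85% and 31.7%, the widest spread of the 31 hairpins (SD 13.4). At the other end, miR-3068 held to 95.7% ± 0.869, and the median SD of the 5p share over the 31 was 0.887 percentage points. That median includes the 12 hairpins whose lesser arm was listed at 0 throughout, where the SD is 0 by construction.

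The members' hairpins were placed in the genome much as all listed miRNAs are. Introns held 61 of the 124 members (49.2%), exons overlapped 28 (22.6%), and 35 (28.2%) lay between genes on their strand, beside 48.8%, 23.02% and 28.2% of the 1668 listed names with a RefSeq locus. The X chromosome held 18 members (14.5%, beside 8.93% of listed names) and chromosome 12 held 21 (16.9%, beside 9.83%). Members of a common precursor or cluster are not independent of each other. In miR-1982-3p, miR-1981-5p, miR-1981-3p and miR-7070-3p the hairpin filled an intron end to end within 5 bases, as mirtrons do. These were 3.23% of the members, beside 2.16% of the listed names, and had a summed level of 1822 ± 940 CPM.

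On the X chromosome a cluster within Clcn5 (chrX:7237683-7242046, minus strand) gave 4 members, miR-501-3p, miR-362-3p, miR-500-3p and miR-362-5p. Their summed level was 9965, 8971, 9736 and 9066 CPM in replicates 1 to 4, among which the highest is 1.11 times the lowest. miR-501-3p and miR-500-3p are the only pair of the members that share a seed, among 109 members with a RefSeq sequence and 108 distinct seeds.
miR-501-3p: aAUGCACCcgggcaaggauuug
miR-500-3p: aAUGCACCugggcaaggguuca
A second X cluster (chrX:53047997-53054349, minus strand) holds Mir322, Mir503, Mir351 and Mir450b, of which miR-322 and miR-503 are known in mouse cells from cell cycle arrest and muscle differentiation. Its 7 members summed to 13457, 13375, 8858 and 41511 CPM in replicates 1 to 4, with replicate 4 far above the others.

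The imprinted Dlk1-Dio3 region, a large cluster of miRNAs expressed from the maternal chromosome, gave 11 members between chr12:109563692-109743795. They were 11 of 106 listed names of the region, beside 124 members of 1965 names in all. The summed level of the 11 was 5481 ± 566 CPM, most of it miR-541-5p, from an intron of Mirg. miR-541-5p had 3200, 3221, 3301 and 3613 CPM in replicates 1 to 4. miR-541-5p had the lowest CV of all members, 5.73%. The sum depends on names of this region whose deposited values are not whole reads of their own library. Over all listed names of the region it was 6671 ± 893 CPM as deposited and 14249 ± 3441 CPM with these values exchanged, as set out at the end.

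In sequence the members were close to the listed names as a whole. The 109 with a RefSeq sequence had a median length of 22 bases and a median GC content of 52.2%, as did the 1674 listed names with one. A first base of U was found in 38.5% of the members and in 41.0% of the listed names, and a length of 22 in 46.8% and 44.9%. Shares of CPM by sequence are of the summed CPM of these 109 members, which leaves out miR-5099 and miR-151-3p among others. Of that sum, 70.0% ± 5.13 came from sequences that begin with G. The share was 5.65% ± 0.677 without miR-101b-3p, which begins with G and has a length of 19 bases. Without miR-101b-3p, sequences that begin with U held 50.5% ± 4.81.

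Short motifs described for miRNAs sorted into exosomes were searched on the mature strand only, with overlaps between motifs allowed. The search covered the 109 members and the 1674 listed names with a RefSeq sequence. GGAG was in 11.01% of the members and 14.2% of the listed names, CCCU in 12.8% and 11.4%, GGCU in 11.01% and 13.3%, and CAUG in 7.34% and 7.95%. CGGGAG was in 0 members and in 9 listed names. Of the summed CPM of these 109 members without miR-101b-3p, names with GGAG held 33.3% ± 2.77 and names with GGCU held 3.03% ± 0.525. The GGAG share was mainly miR-1843a-5p, miR-3068-5p, miR-351-5p, miR-1843b-5p and miR-802-3p. miR-101b-3p holds none of these motifs. A match is a description of the letters and was not set against binding of any protein.

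The cells labelled as hepatocytes were compared with lists of miRNAs known from liver and from other cell types. The lists were chosen with earlier results of these data known, so their counts and sums are no independent check on cell type. Of all 1965 listed names, 124 were members (6.31%). Of 20 hepatocyte names 5 were members, namely miR-101b-3p, miR-21a-5p, miR-802-3p, miR-21a-3p and miR-192-5p. Their list summed to 633549 ± 62279 CPM, nearly all of it miR-101b-3p, and 11 of its names were listed at 0 in all 4 libraries. These include miR-122-3p, both arms of miR-148a and both arms of miR-22, and miR-194-5p was listed with 1 read in 1 library. The defining hepatocyte miRNA, miR-122, is thus nearly missing from the listed values, and the labelled cell type could not be checked on it.

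Of 16 leukocyte names 5 were members, miR-511-3p, miR-146a-5p, miR-155-5p, miR-511-5p and miR-146a-3p, beside 6.31% of all listed names. miR-511 lies in an intron of the macrophage mannose receptor gene Mrc1 (chr2:14261003-14261081, plus strand), miR-146a restrains innate immune signalling, and miR-155 is induced in activated immune cells. The list summed to 10816, 16476, 7107 and 38560 CPM in replicates 1 to 4, highest in replicate 4. The values of miR-155-5p are not whole reads of these libraries. With them exchanged, as set out at the end, 4 names of the list were members. The sum was then 16373 ± 12320 CPM, again highest in replicate 4. The other defining names, miR-223-3p, miR-142a-3p and miR-150-5p, were listed at 0 in all 4 libraries, as were 10 of the 16 names.

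The remaining lists held few members, where 6.31% of all listed names were members. The 3 endothelial names, all of miR-126, and the 10 muscle names were listed at 0 throughout. Of 17 stellate cell and fibroblast names 2 were members, miR-125b-2-3p and miR-99a-3p. That list summed to 3564, 6178, 4220 and 4294 CPM in replicates 1 to 4, nearly all of it miR-125b-2-3p, while both arms of miR-143, miR-145a, miR-199a and miR-214 were listed at 0. Of 10 cholangiocyte and epithelial names 0 were members, and only miR-429-3p (2 reads) and miR-141-5p (1 read) were above 0, each in 1 library. Of 10 neural names 1 was a member, miR-219a-1-3p, at 509, 1216, 1295 and 1431 CPM. Of 7 red cell and platelet names 1 was a member, miR-486a-5p at 26.6, 68.3, 42.8 and 97.4 CPM, which are not whole reads of these libraries. Of 22 listed let-7 family names only miR-98-3p was a member, at 1600, 1052, 209 and 477 CPM, and let-7a-5p was listed at 0. Of 12 miR-30 names 0 were members, the highest being miR-30c-5p at 291, 131, 209 and 0 CPM. In the vesicles of a culture, fewer cells of a type and less of a miRNA per cell cannot be told apart.

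The members differed widely in how well the 4 libraries agreed. The median CV was 48.4%, from 5.73% for miR-541-5p to 131% for miR-5122, with 26 members under 25%, 57 over 50% and 5 over 100%. Counting reads alone gives a CV that falls as the level rises. Of the 124 members, 38 lay below that counting CV and 51 lay at more than 2 times it. For the 46 members with a mean of at least 20 reads the median CV was 35.7%, and the variance of the reads was a median of 9.96 times the counting variance at each library's depth. For the 74 members with fewer reads that ratio was 1.29, and 49 of them were under 2. This ratio grows with the number of reads for members of the same CV, so it does not compare the spread of frequent and rare members. It also includes the shift of all other shares when the share of miR-101b-3p changes.

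**Figure D4:**
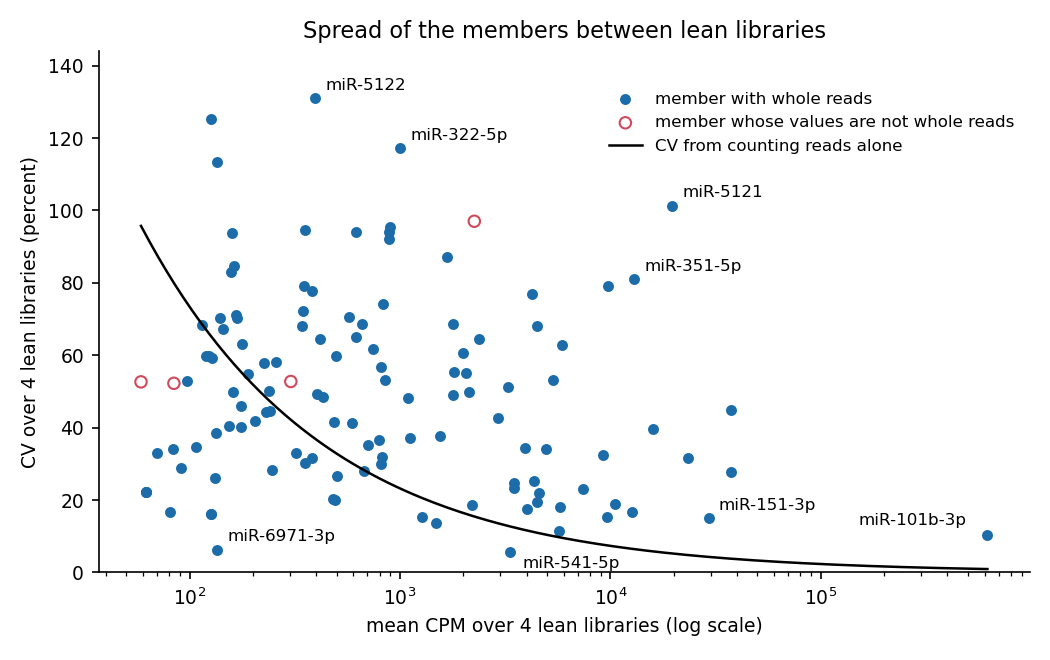
CV over the 4 lean libraries (percent) against mean CPM (log axis) for the 124 members, with the CV that counting reads alone would give as a line and members without whole reads as open circles. miR-541-5p (5.73%) lies below the line. miR-101b-3p (10.3%) and miR-151-3p (14.98%) have low CVs but also lie above the line. Relative to the line, miR-101b-3p lies farther above it than miR-322-5p does. miR-5121 and miR-351-5p also lie far above it.

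Of the members with a mean of at least 20 reads, miR-541-5p, miR-101b-3p, miR-350-5p, miR-203b-3p and miR-151-3p had the smallest CVs. Only miR-541-5p and miR-203b-3p of these lay below their counting CV, and miR-101b-3p lay the farthest above it. miR-350-5p had 4728, 5882, 6184 and 5930 CPM in replicates 1 to 4, and miR-203b-3p had 1237, 1446, 1713 and 1568 CPM. The largest CVs were those of miR-5121, miR-8114, miR-351-5p, miR-511-3p and miR-146a-5p. miR-8114 was high in replicate 1, with 3782, 1446, 627 and 818 CPM, and its mean of 1668 CPM fell to 964 CPM without replicate 1.

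Replicate 4 stood apart most often. It had 17 members more than 2-fold above every other library, beside 8 in replicate 1 and 1 each in replicates 2 and 3. Across members, its log2 CPM correlated with those of replicates 1, 2 and 3 with Pearson's r of 0.856, 0.902 and 0.868, while pairs among replicates 1 to 3 gave 0.929, 0.910 and 0.940. These are across 124 miRNAs, which are not independent replicates. Replicate 4 held 14671 reads, beside 13748 in replicate 1 and more in the others.

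miR-5121, whose hairpin overlaps an exon of the ribosomal protein gene Rpl13a (chr7:45126918-45126991, minus strand), had 7347, 13506, 8399 and 49076 CPM in replicates 1 to 4. Replicate 4 is 3.63 times the next library, and the mean of 19582 CPM becomes 9751 CPM without it. miR-351-5p had 8947, 8676, 5766 and 28696 CPM, and its mean of 13021 CPM becomes 7796 CPM without replicate 4. All 7 members of its X cluster were among the 17, at 2.19 to 3.21 times the next library. miR-511-3p had 5237, 9366, 3635 and 20721 CPM, and miR-146a-5p had 2837, 3253, 1797 and 8997 CPM, with means of 6079 and 2629 CPM without replicate 4 beside 9740 and 4221 CPM with it. miR-155-5p had 851, 1622, 1048 and 5502 CPM, with 1174 CPM without replicate 4, and its values are not whole reads. With them exchanged, as set out at the end, miR-155-5p would have 145, 526, 0 and 886 CPM. Its replicate 4 would then no longer lie more than 2-fold above every other library.

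Replicate 4 also held the lowest share of miR-101b-3p and the highest sum of the leukocyte list. That list averaged 18240 ± 14084 CPM over the 4 libraries and 11466 CPM over replicates 1 to 3. The part of these markers in the levels of the other members was not tested. In the opposite direction, 7 members were more than 2-fold below every other library in replicate 4, among them miR-1843a-3p and miR-6538, which had 1018, 854, 1045 and 68.2 CPM in replicates 1 to 4. In replicate 3, 11 members were that far below the others, and 48 of the 124 had their lowest value there.

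**Figure D5:**
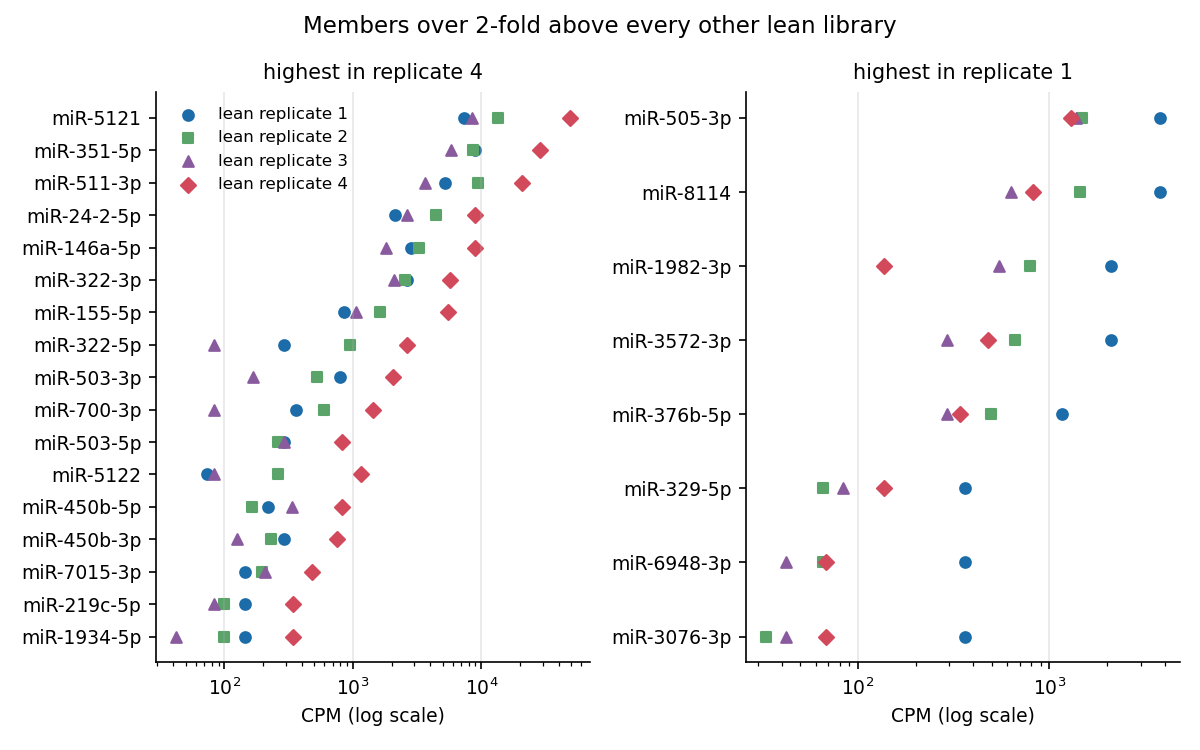
CPM (log axis) of the members that lay over 2-fold above every other lean library in replicate 4 (left, 17 members) or in replicate 1 (right, 8 members). miR-5121, miR-351-5p and the other members of the X cluster lie to the right in replicate 4, and the rarest members shown rest on 1 to 5 reads per library.

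Membership at the low end rested on single reads. Of the 120 members whose values are whole reads, 27 had a minimum of 1 read in some library, 72 had at least 3 reads in all 4, and 45 had at least 10. The lowest of them, miR-187-5p, miR-290b-5p and miR-7083-5p, had identical values of 1, 2, 1 and 1 reads, a mean of 62.1 CPM. Just outside, above 0 in 3 of 4 libraries, were names with higher means. miR-193b-3p was listed at 0, 361, 1003 and 68.2 CPM in replicates 1 to 4, miR-7075-3p at 655, 197, 83.6 and 0 CPM, and miR-182-5p at 0, 197, 83.6 and 613 CPM. miR-434-5p was listed at 0, 329, 334 and 204 CPM, and miR-211-5p at 291, 65.7, 0 and 341 CPM. All 5 have means above that of the lowest members.

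For 7 names the deposited lean values are not whole reads of their own library, and they become whole when exchanged with the 16-week value of the same replicate number. The exchange also brings the summed CPM of replicates 1, 3 and 4 to 1000000, while replicate 2 then lacks 2 reads. Of the 23 deposited lean values above 0 of these names, 21 are whole reads of the 16-week library of the same replicate number. The exceptions are miR-155-5p in replicates 2 and 3, at 47.5 and 24.5 such reads, which are whole in neither library. How these values arose was not tested. As deposited, 4 of the 7 were members, miR-155-5p, miR-346-5p, miR-300-3p and miR-486a-5p. miR-346-5p had 106, 239, 428 and 438 CPM and miR-300-3p had 79.8, 68.3, 42.8 and 146 CPM in replicates 1 to 4. After the exchange miR-300-3p, miR-434-3p, miR-299a-3p and miR-376b-3p, all of the Dlk1-Dio3 region, would be members in a total of again 124 names. miR-434-3p would average 4228 ± 1588 CPM and rank 24 among all listed names, miR-300-3p would average 2441 ± 1057 CPM and rank 33, and miR-155-5p would average 389 ± 399 CPM and rank 77. miR-299a-3p and miR-376b-3p would average 590 and 562 CPM, while miR-346-5p and miR-486a-5p would average 47.3 and 17.04 CPM. miR-155-5p, which would be listed at 0 in replicate 3, miR-346-5p and miR-486a-5p would no longer be members. The deposited values were kept elsewhere in the text.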

How the data were processed

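Small RNA from exosomes of cultured mouse hepatocytes was sequenced by the authors, who deposited 1 CPM value per miRNA name and library. Per the submitters' processing notes, cutadapt 1.13, edgeR 3.16.5 and the mm10 build were used. The aligner and the miRNA annotation are not given in the sources used here. Only the 4 lean columns were described, with no comparison between diets. No test between groups was made, and a 2-sided sign-flip test over 4 libraries cannot go below 0.125. Libraries that stand apart were sought with Dixon's gap ratio. Reads were recovered as whole multiples of the CPM of 1 read, and 969 of 992 values above 0 (97.7%) were whole within a relative tolerance of 1e-06. Means, SDs, CVs, shares and the Shannon effective number were computed in Python 3.11.15 with pandas 2.3.3 and scipy 1.17.1, by scripts tested on simulated reads. Sequences came from RefSeq (109 of 124 members matched) and host genes from GENCODE, both on GRCm38.

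The rule for naming took the 20 highest members with their other arms, the leading names of each list, the members of largest and smallest CV among those of at least 20 mean reads, the most even and most one-sided hairpins, the 5 highest names just outside membership and the 7 names without whole reads. Other names in the text were chosen after their values were seen. The members and lists were chosen with earlier results of these data known. Alternatives left out each replicate, changed the read minimum or the scaling, or replaced the values of the 7 names.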

Additional observations from a re-analysis of the deposited data

Results flagged for a closer look

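In 3 of 86 sets of 4 lean values examined (named members, arm shares, list sums and cargo summaries), the gap between the highest library and the nearest of the others passed Dixon's 95% critical value for 4 samples. Chance flags about 1 in 20 such groups. In each case the library was replicate 4. miR-5121 had 49076 CPM there, beside 7347 to 13506 CPM in the other libraries. miR-351-5p had 28696 CPM there, beside 5766 to 8947 CPM. miR-155-5p had 5502 CPM there, beside 851 to 1622 CPM, and its deposited values are not whole reads of these libraries. With them exchanged, miR-155-5p would have 145, 526, 0 and 886 CPM in replicates 1 to 4. This flag thus rests on the deposited values.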

How the results depend on the processing

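No paired analysis was possible because the lean libraries were compared with no other group. Leaving out each replicate in turn gave 132 to 147 members holding 98.9% to 99.1% of the CPM, 66 to 76 hairpins led by 3p and 33 to 39 by 5p, a median CV of 39.1% to 50.7%, a miR-101b-3p share of 59.5% to 64.8%, a top 10 share of 81.5% to 83.2% and an effective number of 7.35 to 8.90. A minimum of 3 reads in all 4 libraries left 73 members with 97.6% of the CPM, and a minimum of 10 reads left 46 with 96.0%. Names above 0 in at least 3 libraries held 99.4%, and thinning every library to the shallowest gave a member share of 98.6%. Without miR-101b-3p the top 10 share was 55.4% and the effective number 42.3, and as an inverse Simpson index the effective number was 2.59. With at least 10 reads over both arms in every library, 26 hairpins were led by 3p and 12 by 5p. Exchanging the values of the 7 names moved miR-486a-5p to 17.04, miR-300-3p to 2441 and miR-346-5p to 47.3 CPM, and gave miR-155-5p 389 CPM beside 2256 CPM as deposited, a change within its large SD of 2189. The other 58 summary values stayed within the SD between replicates or, for counts and the median CV, within 1.5 times. The median CV ranged from 34.3% with a minimum of 10 reads to 64.7% for names above 0 in at least 3 libraries. Of the single levels, 165 stayed within their SD, miR-155-5p included. Leaving out 1 replicate cannot move the mean of 4 values by as much as their SD. Nearly all of these 165 outcomes were therefore fixed in advance and say nothing about stability. Among the 58 summary values, those of the miR-101b-3p share and the effective number without each replicate were fixed in the same way. Those of the top 10 share without each replicate were nearly so. The cause of the changes was not tested, apart from the fewer names that stricter minimums keep by construction. Leaving out a replicate can likewise only keep or raise the counts of members and of hairpins led by 1 arm. The list and Dlk1-Dio3 sums with values exchanged, or without replicate 4, were added after seeing the data. Depth limits members of a few reads, where 1 read is 32.9 to 72.7 CPM.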
